A study of Mus musculus with 6 samples.

Results

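The genes described here are 40 cell cycle genes, taken by symbol from a fixed list and read with all of their probes on mouse bead arrays. They fall into 22 genes of the G1-S transition and DNA replication and 18 genes of G2 and mitosis. Of the 40, 36 had at least 1 of the 25697 probes, 66 probes in all. Cdk4, Ccnb1, Aurkb and Mki67 had no probe under their name and were not analysed here. Another 5 members, Cdk6, Ccna2, Ccnb2, Bub1 and Kif20a, had a probe that was detected on no array, so their transcripts could not be read. The remaining 31 members, 20 of G1-S and 11 of mitosis, are the ones with values below, and they stand among 8605 genes tested.

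The arrays measured cultured mouse embryonic stem cells, 1 array for each of 6 samples. Sox17-inducible line 1 and the independently derived line 2 each gave a culture that had doxycycline (group Sox17_dox, n = 2) and one that had none (group Sox17_untreated, n = 2), as did the control line KH2 (groups KH2_dox and KH2_untreated, n = 1 each). The line whose labels carry no number is called line 1 here. Doxycycline was given at 1 µg/mL for 5 days, in serum and LIF without feeder cells. Sox17 is an endoderm transcription factor, and KH2 is known as a stem cell line that carries a doxycycline-dependent transactivator. Each inducible line is 1 line and each KH2 value is 1 array, so precision is limited by how few arrays there are. All 10 pluripotent stem cell markers looked for were detected on all 6 arrays, with a summed signal in the authors' normalised values of 61800 (KH2_dox) to 74600 (Sox17_dox of line 1). Extraembryonic endoderm markers were detected for 9 and 11 of 12 genes on the Sox17_dox arrays of lines 1 and 2, against 8 and 8 without doxycycline and 9 and 7 in KH2 without and with it. Their summed signal was 7870 and 12600 on the induced arrays, 3120 and 7770 on the untreated arrays of the same lines, and 4100 and 4990 in KH2. Of 9 fibroblast, 8 mesoderm or definitive endoderm and 6 neuroectoderm markers, no array detected more than 3, 2 and 2. The part of these markers in the cell cycle values was not tested. In such bulk samples, fewer cells in a phase and less RNA per cell cannot be told apart. Each array detected between 11219 and 11957 probes.

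The cell cycle runs on cyclins, proteins that come and go and switch on the cyclin-dependent kinases. D-type and E-type cyclins drive cells from G1 into S phase through release of the E2F factors, which turn on the genes of DNA replication. Cyclin B with Cdk1 then drives mitosis, whose genes are held down early in the cycle and released late through CCAAT boxes and the cell cycle genes homology region, a promoter element with the core TTTGAA. Mouse embryonic stem cells are known for a short G1 phase and for cyclin E levels that vary little over the cycle.

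Promoter letters differed between the phases. A promoter here is the stretch from 250 bases before to 50 bases after a start site in RefSeq (GRCm38.p6), and 18 G1-S members (20 promoters) and 14 mitotic members (14 promoters) had one. TTTGAA, on either strand, stood in 10 of 14 mitotic promoters (71.4%), in 1 of 20 G1-S promoters (5.0%) and in 17.9% of all 32851 promoters of the table. CCAAT, on either strand, stood in 12 of 14 mitotic promoters (85.7%), 12 of 20 G1-S promoters (60.0%) and 37.4% of all. The E2F-site letters TTTCCCGC or TTTGGCGC, on either strand, stood in 7 of 20 G1-S promoters (35.0%), in 0 of 14 mitotic promoters and in 1.56% of all. No motif contains another, and a match is not a shown binding site. The 250 bases before the start site follow for 6 members the results below turn on, to show where the motifs lie, with their letters in capitals on whichever strand they fall. Cdc6 and Mcm6 show the E2F letters, Cdk1 and Top2a show CCAAT with TTTGAA, and Mad2l1 and the first Ccnd3 start site show none of the 3 motifs in this window.
Cdc6, chr11:98907901-98908150 (+): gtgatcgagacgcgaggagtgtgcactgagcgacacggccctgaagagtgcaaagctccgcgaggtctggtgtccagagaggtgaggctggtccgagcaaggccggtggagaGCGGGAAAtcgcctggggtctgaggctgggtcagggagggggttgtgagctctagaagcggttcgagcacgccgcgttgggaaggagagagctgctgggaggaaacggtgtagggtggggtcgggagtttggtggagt
Mcm6, chr1:128359706-128359955 (-): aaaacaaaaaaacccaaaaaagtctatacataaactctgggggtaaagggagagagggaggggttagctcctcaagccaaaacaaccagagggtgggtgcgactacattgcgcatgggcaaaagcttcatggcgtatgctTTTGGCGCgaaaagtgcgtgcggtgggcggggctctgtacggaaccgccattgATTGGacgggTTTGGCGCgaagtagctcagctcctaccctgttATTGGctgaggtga
Ccnd3 first start site, chr17:47504801-47505050 (+): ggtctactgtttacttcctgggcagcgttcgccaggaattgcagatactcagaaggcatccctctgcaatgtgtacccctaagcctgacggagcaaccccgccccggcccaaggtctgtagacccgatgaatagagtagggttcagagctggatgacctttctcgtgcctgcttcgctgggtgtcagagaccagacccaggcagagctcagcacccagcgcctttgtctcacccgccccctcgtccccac
Ccnd3 second start site, chr17:47593217-47593466 (+): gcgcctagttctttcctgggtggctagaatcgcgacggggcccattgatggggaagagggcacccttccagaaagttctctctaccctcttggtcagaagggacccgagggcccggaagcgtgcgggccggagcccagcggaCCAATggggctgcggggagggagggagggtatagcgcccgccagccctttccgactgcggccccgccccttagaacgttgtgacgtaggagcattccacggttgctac
Cdk1, chr10:69352913-69353162 (-): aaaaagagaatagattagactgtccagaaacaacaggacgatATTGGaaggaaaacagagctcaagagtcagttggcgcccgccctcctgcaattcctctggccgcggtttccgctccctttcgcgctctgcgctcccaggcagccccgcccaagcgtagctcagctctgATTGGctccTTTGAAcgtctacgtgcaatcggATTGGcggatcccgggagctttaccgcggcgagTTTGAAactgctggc
Top2a, chr11:99024190-99024439 (-): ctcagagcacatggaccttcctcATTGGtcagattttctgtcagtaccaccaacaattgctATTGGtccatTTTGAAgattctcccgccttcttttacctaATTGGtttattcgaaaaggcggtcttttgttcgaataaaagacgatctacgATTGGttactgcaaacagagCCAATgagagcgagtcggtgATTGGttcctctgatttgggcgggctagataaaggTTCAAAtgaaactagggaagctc
Mad2l1, chr6:66534971-66535220 (+): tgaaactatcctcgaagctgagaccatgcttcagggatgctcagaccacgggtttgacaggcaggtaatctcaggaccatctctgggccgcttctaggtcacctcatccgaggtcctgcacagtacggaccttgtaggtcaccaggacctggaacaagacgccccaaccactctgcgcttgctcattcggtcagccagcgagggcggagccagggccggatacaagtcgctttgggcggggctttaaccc

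**Figure D1:**
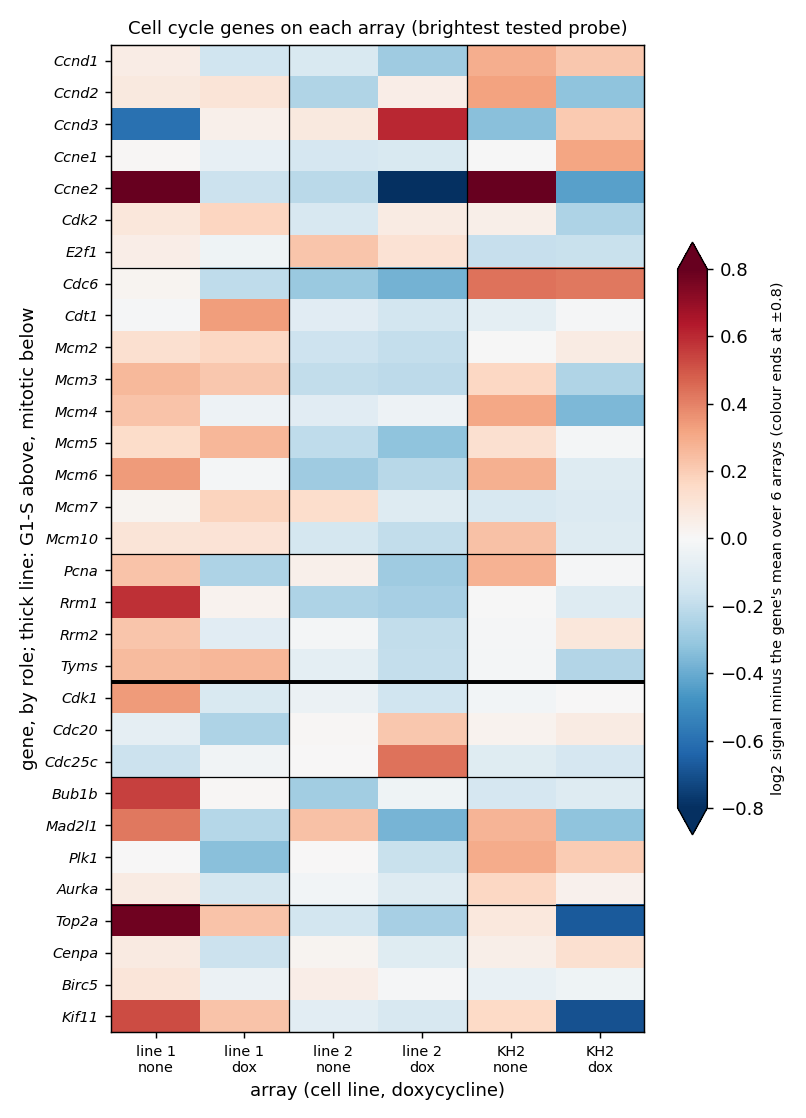
Log2 signal of the 31 tested members on each of the 6 arrays, as the difference from the gene's mean over the arrays (colour, ending at ±0.8); rows are genes by role, columns are cell line and doxycycline. Mad2l1 steps down and Ccnd3 steps up by over 0.5 in all 3 lines, and the untreated array of line 1 is the highest of the 6 for Rrm1, Bub1b, Top2a and Kif11.

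The first comparison asked what 5 days of Sox17 induction left different in the cell cycle genes of the inducible lines. The change, as log2 signal with doxycycline minus without, was within 0.5 of 0 for 25 of 31 members in line 1 and for 28 of 31 in line 2. The share of all tested genes within 0.5 was not computed for these lines. In KH2 24 of 31 members were within 0.5, where 12.6% of all tested genes were lower and 9.15% higher by 0.5 or more. By direction, 21 of the 31 were lower with the drug in line 1, 22 in line 2 and 19 in KH2, against 51.3%, 50.6% and 47.9% of all tested genes. In all, 16 were lower with doxycycline in both lines and 4 were higher in both, where 31.3% of all tested genes were lower in both and 29.3% higher in both. These counts hold Ccne2, which both arrays of line 2 failed to detect. Of the inducible lines only line 1 split by phase, with 10 of 11 mitotic and 11 of 20 G1-S members lower. In line 2, 8 of 11 and 14 of 20 were lower. In line 1 the size of the change exceeded 2 bead standard errors for 9 mitotic and 10 G1-S members. In line 2 it did so for 4 and 6. The share of all tested genes past 2 bead standard errors was not computed, so these counts do not show whether the members stand out. Of the 11 mitotic members 8 were lower in both lines and 1, Cdc25c, was higher in both, while of the 20 G1-S members 8 were lower in both and 3 (Ccnd2, Ccnd3 and Cdk2) were higher in both.

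By limma with 4 group means, 0 of the 12373 probes passed an adjusted p under 0.05 in this comparison (0% called), so no member did either (smallest adjusted p of a member 0.955). Before adjustment 528 probes had p under 0.05. Read by the brightest probe, so did 4.57% of tested genes and, of the members, 1 (Mad2l1). With the line as a block, 1 probe passed, that of no member (smallest adjusted p of a member 0.127). The values below are therefore sizes, not calls.

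The median change of the G1-S and replication members was -0.06 in both inducible lines. That of the mitotic members was -0.29 in line 1 but -0.08 in line 2, where all tested genes had -0.01 and 0.00. The G1-S median minus the mitotic median was thus 0.24 in line 1 and 0.02 in line 2, and -0.08 in KH2. No p is given for these differences, since the genes were chosen with results known. The replicate arrays of a group differed in their median by an SD of 0.17 for the G1-S members, 0.05 for the mitotic members and 0.14 for the difference of the phases. These SDs describe single-array levels between the inducible lines, not a change within a line. They therefore cannot decide whether the 0.24 of line 1 lies beyond the spread of such a change. With no filter on dim probes the difference of the phases was 0.13 in line 1. Over both lines it was 0.12, and -0.04 without the induced array of line 1. Here and below, leaving out 1 array of an inducible line breaks the pair of that line. Such a value therefore also holds the difference between the lines.

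**Figure D2:**
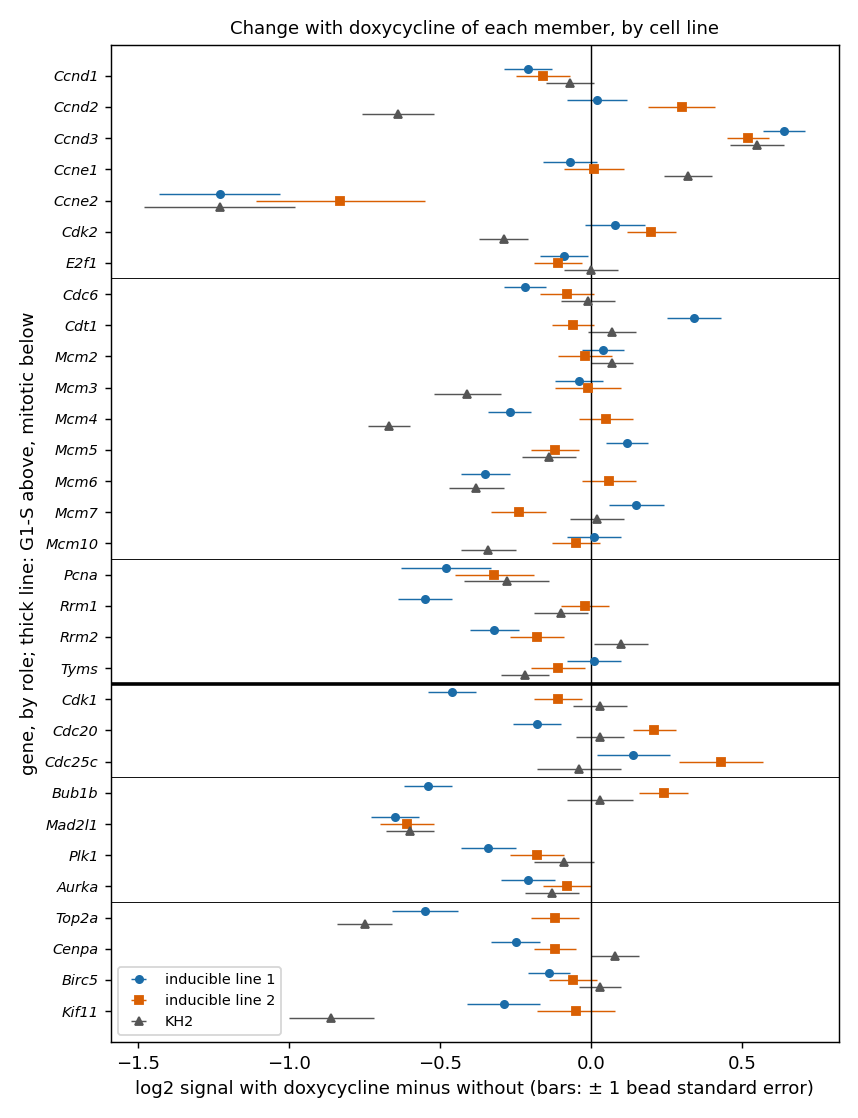
Change with doxycycline (log2 signal with minus without) of each tested member in inducible line 1, inducible line 2 and KH2; bars are ± 1 bead standard error, which covers the beads of the 2 arrays only. The 3 lines coincide for Mad2l1 (-0.65, -0.61 and -0.60) and Ccnd3 (0.64, 0.52 and 0.55) and part for Bub1b, Mcm4 and Kif11.

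Among the G1 cyclins, Ccnd3 (cyclin D3, a partner of Cdk4 and Cdk6) was the member with the largest positive change. Its brightest probe read 12.25 without and 12.89 with doxycycline for line 1, 12.93 and 13.46 for line 2, and 12.52 and 13.07 for KH2. Each line was higher with the drug, KH2 as much as the others, yet the groups overlapped, because untreated line 2 read as high as induced line 1. The fitted difference of the inducible lines was 0.58 ± 0.31 (SE, n = 2 against 2, limma adjusted p = 0.955), or 0.24 without the untreated array of line 1 and 0.92 without that of line 2. The second probe gave 0.97, 0.74 and 0.68 in line 1, line 2 and KH2. The third and dimmest probe gave -0.10, -0.10 and 0.44.

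Ccnd1 and Ccnd2, the other D-type cyclins, did not share that change. Ccnd1 was lower in all 3 lines by its brightest probe, by -0.21, -0.16 and -0.07, and its other probes were lower in each line as well. Ccnd2 read 8.57 without and 8.58 with doxycycline for line 1, 8.24 and 8.54 for line 2, and 8.81 and 8.16 for KH2. It was therefore lower with the drug in KH2 only, by -0.64. The response of the inducible lines minus that of KH2 was 0.80 ± 0.36 for Ccnd2, and it did not pass the test (limma adjusted p = 0.996).

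Ccne2 (cyclin E2, a partner of Cdk2) was lower with doxycycline wherever it could be read. It read 6.89 without and 5.66 with doxycycline for line 1, 5.62 and 4.79 for line 2, and 6.63 and 5.40 for KH2. Only the untreated arrays of line 1 and KH2 detected it. It was thus at least 2.28-fold lower with the drug in line 1 and at least 1.74-fold lower in KH2, with the dim side set at the detection limit, while line 2 gave no fold because both of its arrays were below detection. Reckoned the same way, the induced lines together were 1.46-fold below the untreated ones, of which 1 of 2 arrays detected it. That value is not a lower bound, since the untreated mean holds the undetected reading of line 2. The limma fit gave -1.03 ± 0.47 with an adjusted p of 0.955, and -0.39 without the untreated array of line 1. Ccne1 (cyclin E1) had changes of -0.07, 0.01 and 0.32 in line 1, line 2 and KH2, so the E-type cyclins differed in KH2, where one was lower and the other higher.

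The kinase gene Cdk2 had changes of 0.08, 0.20 and -0.29 in line 1, line 2 and KH2, and its 4 probes disagreed in direction in line 1. E2f1, a factor that turns on S-phase genes, had -0.09, -0.11 and 0.00. Neither exceeded 0.5 in any line.

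Origin licensing loads the MCM helicase on DNA in G1, with Cdc6 and Cdt1 as the loaders. The 6 subunits of the ring, Mcm2 to Mcm7, had changes of -0.35 to 0.15 in line 1, -0.24 to 0.06 in line 2 and -0.67 to 0.07 in KH2. No single direction held: 3 of the 6 were lower in line 1, 4 in line 2 and 4 in KH2. Mcm4 read 13.52 without and 13.25 with doxycycline for line 1, 13.20 and 13.25 for line 2, and 13.60 and 12.93 for KH2. Its second probe had changes of -0.50, -0.21 and -0.93 for line 1, line 2 and KH2, and its dimmest probe had 0.08, 0.18 and -0.41. All probes of Mcm4 were thus lower in KH2, and they disagreed in direction in the inducible lines. Mcm6 read 12.29 and 11.94 for line 1, 11.67 and 11.73 for line 2, and 12.23 and 11.85 for KH2. Its dimmest probe opposed that in line 1 (0.29). By the brightest probe, lower values on the drug arrays of line 1 and KH2 but not of line 2 were thus shared by both of these subunits. Without the untreated array of line 1, the difference of the inducible lines was 0.05 for Mcm4 and 0.17 for Mcm6. That difference sets both induced arrays against untreated line 2 alone. Mcm10, a replication initiation factor, had changes of 0.01, -0.05 and -0.34.

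Cdc6 read 10.75 without and 10.52 with doxycycline for line 1, 10.43 and 10.35 for line 2, and 11.16 and 11.15 for KH2. Both KH2 arrays were above all 4 inducible arrays, with or without the drug. The other loader, Cdt1, had changes of 0.34, -0.06 and 0.07. Differences of 0.14 (Cdt1) and -0.15 ± 0.21 (Cdc6) between the induced and the untreated lines were below their standard errors, and that of Cdc6 was 0.01 without the untreated array of line 1.

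The 4 DNA synthesis genes had median changes of -0.40 (line 1), -0.15 (line 2) and -0.16 (KH2), where all tested genes had -0.01, 0.00 and 0.02. Pcna, the sliding clamp of the replication fork, read 8.20 without and 7.72 with doxycycline for line 1, 8.01 and 7.69 for line 2, and 8.25 and 7.96 for KH2. Both induced arrays were below both untreated arrays, and KH2 was lower as well. The fitted difference was -0.40 ± 0.20 (SE, n = 2 against 2, limma adjusted p = 0.955). Rrm1, the large subunit of ribonucleotide reductase, read 11.27 and 10.72 for line 1, 10.44 and 10.42 for line 2, and 10.68 and 10.58 for KH2. The change of Rrm1 lay in line 1, whose untreated array stood above the other 5. The fitted difference of -0.29 ± 0.31 was 0.13 without that array, with both induced arrays then set against untreated line 2 alone. Rrm2, the small subunit, had -0.32, -0.18 and 0.10, and Tyms, which makes thymidylate, had 0.01, -0.11 and -0.22. The second Rrm2 probe gave -0.45 in KH2, against the direction of the brightest.

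**Figure D3:**
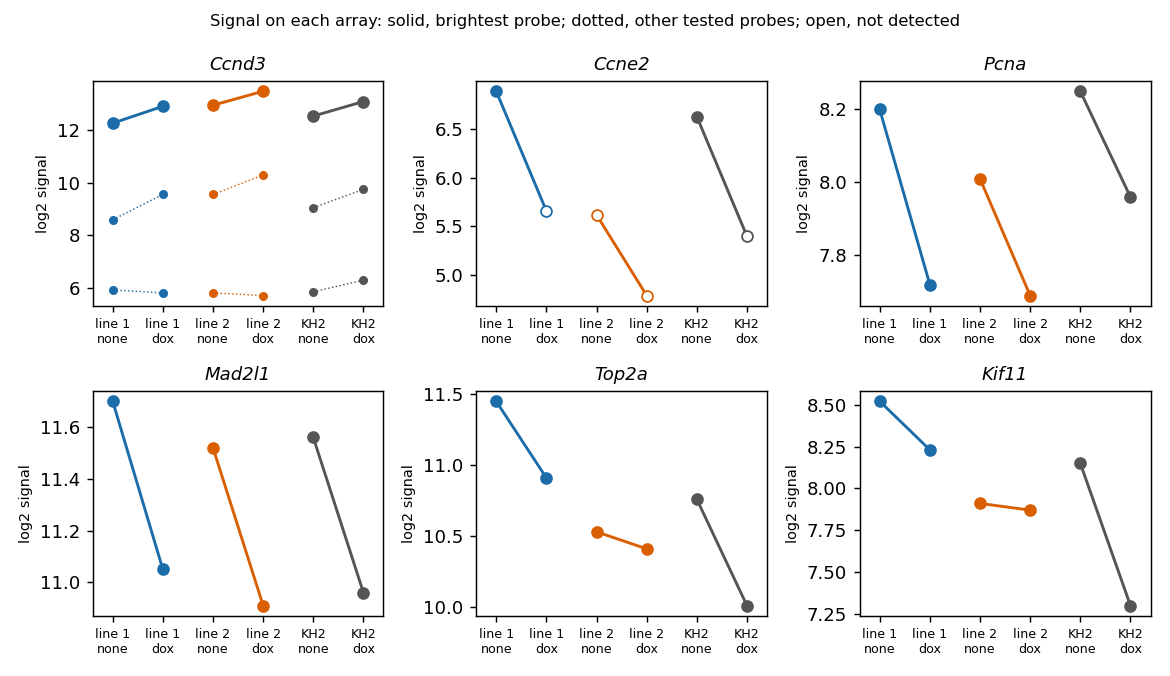
Log2 signal on each array for Ccnd3, Ccne2, Pcna, Mad2l1, Top2a and Kif11, with lines joining the arrays of a cell line without and with doxycycline; solid lines are the brightest probe, dotted lines the other tested probes, and open circles were not detected. Each panel has its own axis, which does not start at 0. Mad2l1 steps down in parallel in the 3 lines, whereas Top2a and Kif11 step down in line 1 and KH2 and stay near level in line 2.

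Mad2l1 (Mad2, which holds the anaphase-promoting complex back until chromosomes are attached) was the mitotic member with the largest mean change over the inducible lines. It read 11.70 without and 11.05 with doxycycline for line 1, 11.52 and 10.91 for line 2, and 11.56 and 10.96 for KH2. The 3 arrays with the drug were all below the 3 without it, by nearly the same step in each line. In the inducible lines the difference was -0.63 ± 0.20 (SE, n = 2 against 2, limma adjusted p = 0.955), and it was -0.54 to -0.72 when 1 array was left out. The response of the inducible lines minus that of KH2 was -0.03 ± 0.35 (limma adjusted p = 0.999).

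Its partner in the checkpoint, Bub1b (BubR1), read 10.66 without and 10.12 with doxycycline for line 1, 9.83 and 10.08 for line 2, and 9.98 and 10.01 for KH2. Only line 1 was lower with the drug. Plk1, a kinase of mitotic entry and spindle assembly, read 12.36 and 12.03 for line 1, 12.36 and 12.18 for line 2, and 12.65 and 12.56 for KH2. Every line was lower, and both induced arrays were below both untreated ones, by -0.26 ± 0.19. Aurka (Aurora A, a spindle pole kinase) had -0.21, -0.08 and -0.13.

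Cdk1, the kinase of mitotic entry, read 12.34 without and 11.88 with doxycycline for line 1, 11.96 and 11.84 for line 2, and 11.98 and 12.01 for KH2. It was lower in both inducible lines and level in KH2, with a fitted difference of -0.29 ± 0.22. Cdc20, an activator of the anaphase-promoting complex, had -0.18, 0.21 and 0.03. Cdc25c, a phosphatase that activates Cdk1, read 7.64 and 7.79 for line 1, 7.82 and 8.25 for line 2, and 7.72 and 7.68 for KH2. That higher reading in both inducible lines was not shared by its other tested probe, which gave -0.12 in each of them.

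The chromosome and spindle motor genes were all lower in both inducible lines (4 of 4 tested), where 31.3% of all tested genes were. Top2a (topoisomerase II alpha, which untangles chromosomes) read 11.45 without and 10.91 with doxycycline for line 1, 10.53 and 10.41 for line 2, and 10.76 and 10.01 for KH2. The groups overlapped, since untreated line 1 stood above all others. Kif11, the kinesin that separates the spindle poles, read 8.52 and 8.23 for line 1, 7.91 and 7.87 for line 2, and 8.15 and 7.30 for KH2. For Top2a and Kif11 the step in KH2 was the largest of the 3 lines, at -0.75 and -0.86. In the inducible lines both turned to 0.13 without the untreated array of line 1. Cenpa, the centromere histone, read 14.55 and 14.30 for line 1, 14.50 and 14.38 for line 2, and 14.52 and 14.60 for KH2. Birc5 (survivin, of the chromosomal passenger complex) had -0.14, -0.06 and 0.03. Cenpa and Birc5 were lower in the inducible lines and slightly higher in KH2.

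In 9 of the 31 members both Sox17_dox arrays read below both Sox17_untreated arrays, against 17.6% of all tested genes, and in 0 members did they read above, against 15.9%. Of these 9 members, 6 were mitotic (Cdk1, Mad2l1, Plk1, Aurka, Cenpa and Birc5) and 3 were of G1-S (Ccnd1, Pcna and Rrm2). Past 0.5 in the same direction in both lines were Ccnd3, Mad2l1 and, by readings that line 2 did not detect on either array, Ccne2, where 1.42% of all tested genes were that much lower and 1.87% that much higher. Ccnd3 and Mad2l1 also passed 0.5 in the same direction in KH2, Mad2l1 among the 0.407% of tested genes that much lower in all 3 lines and Ccnd3 among the 0.465% that much higher. Ccne2 was that much lower in line 1 and KH2, and its change in line 2 could not be read.

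Since KH2 shared these directions, doxycycline was also compared with no doxycycline over the 3 lines together, with the line as a block. This fit was added after the values had been seen. It called 0 of 12373 probes (0%, smallest adjusted p = 0.0766, with 1789 probes at an unadjusted p under 0.05). At the gene level 14.8% of tested genes reached an unadjusted p under 0.05, and so did 5 of the 31 members. Mad2l1 differed by -0.62 ± 0.15 (adjusted p = 0.148) and Ccnd3 by 0.57 ± 0.15 (adjusted p = 0.163), each in the same direction in 3 of 3 lines. The largest Ccnd3 value came from its second probe (0.80 ± 0.16, adjusted p = 0.128). Pcna (-0.36 ± 0.15, adjusted p = 0.315) and Top2a (-0.47 ± 0.17, adjusted p = 0.252) were lower in 3 of 3 lines too. Ccne2 had the smallest adjusted p of the members, 0.0766. That p fell to 0.00316 without line 1 and to 0.0254 without line 2, but the levels behind it were below detection on 4 of the 6 arrays. The 2 arrays by which the probe met the detection filter, those of line 1 and KH2, were both untreated. These p-values thus rest mostly on readings below detection and do not decide whether Ccne2 changed.

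With doxycycline KH2 was lower by 0.5 or more for Ccnd2, Ccne2, Mcm4, Mad2l1, Top2a and Kif11 and higher by that much for Ccnd3, against 12.6% of all tested genes lower and 9.15% higher. The KH2 pair is 1 array against 1 and has no replicate check.

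Induced lines and KH2 were next compared where both had received the drug. The 31 members differed by -0.71 (Cdc6) to 0.75 (Kif11), and 15 were lower in the induced lines, where 51.1% of all tested genes were lower. Cdc6 was lower by -0.71 ± 0.26 (SE, n = 2 against 1), Kif11 higher by 0.75 ± 0.33 and Top2a higher by 0.65 ± 0.43. None of these passed the test (limma adjusted p = 0.441, 0.467 and 0.594), and Cdc6 was the 1 member with an unadjusted p under 0.05, against 11.1% of tested genes. Over all probes limma called 0 of 12373 (0%), with 1370 at an unadjusted p under 0.05.

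Without doxycycline, no member differed by 1 or more between the inducible lines and KH2. Differences of the untreated lines from untreated KH2 ran from -0.57 (Cdc6) to 0.32 (E2f1), with 16 of 31 members lower in the inducible lines and 52.8% of all tested genes lower. Cdc6 was therefore lower in the inducible lines than in KH2 both without the drug (-0.57 ± 0.26, limma adjusted p = 1) and with it. Kif11 and Top2a differed by 0.06 and 0.23 before induction. limma called 0 of 12373 probes here as well (0%), with 348 at an unadjusted p under 0.05. At the gene level 2.74% had such a p, and 0 members did.

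The difference of the responses, inducible lines minus KH2, ran from -0.35 to 0.80 over the members and called 0 of 12373 probes (0%, limma), with 344 at an unadjusted p under 0.05. Its largest member value was that of Ccnd2. Kif11 (0.69 ± 0.47) and Mcm4 (0.56 ± 0.36) came next, and for both the largest step was the lower value of KH2_dox.

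**Figure D4:**
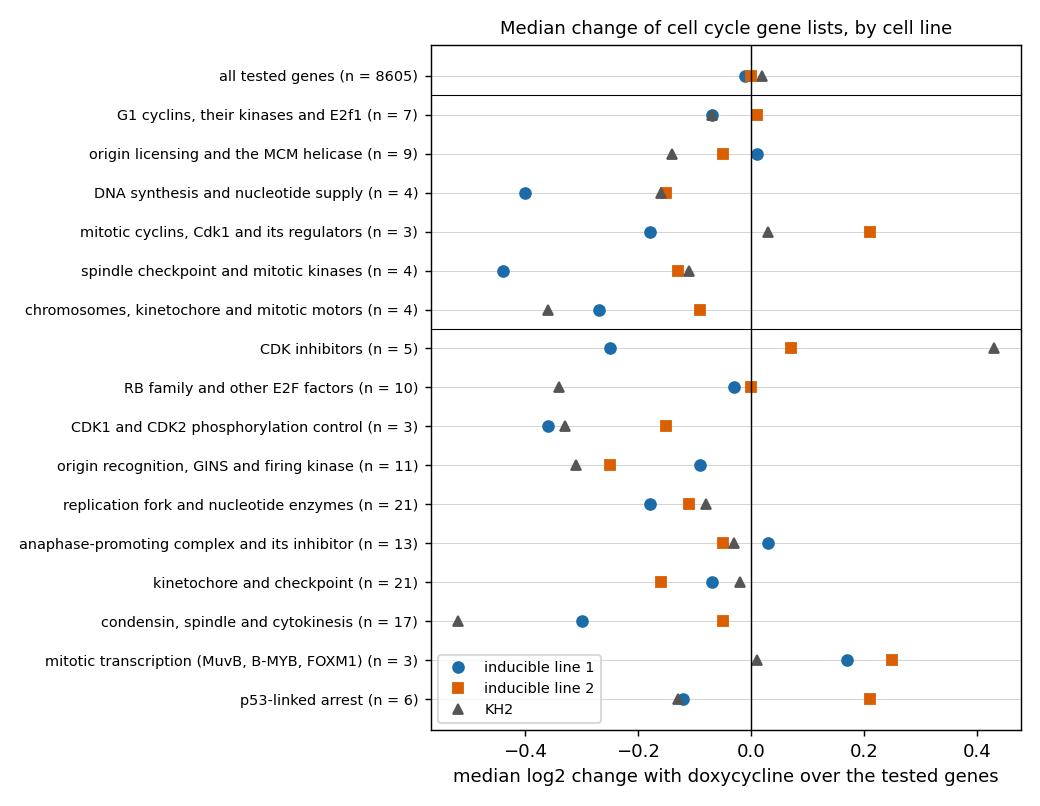
Median log2 change with doxycycline over the tested genes of each cell cycle list, in inducible line 1, inducible line 2 and KH2, with the number of tested genes; the top row is all tested genes, the next 6 rows are the members by role, and the last 10 rows are other genes of the pathway. The condensin, spindle and cytokinesis list is farthest below 0 in KH2 (-0.52) and the CDK inhibitor list is farthest above it there (0.43).

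The remaining machinery was read from 10 further lists with 156 genes, of which 110 were tested and 0 passed in the first comparison (limma, smallest adjusted p = 0.955). Of these 110, 44 were lower in both inducible lines and 19 were higher in both, against 31.3% and 29.3% of all tested genes. Replication fork and nucleotide enzymes had medians of -0.18, -0.11 and -0.08 in line 1, line 2 and KH2, with 12 of 21 genes lower in both inducible lines. Dut, which clears dUTP, was lower by -0.52 ± 0.27, and Rpa2, a subunit of the single-strand binding protein, by -0.41 ± 0.22. In KH2 Dut was lower (-0.40) and Rpa2 higher (0.17). Of the 4 DNA synthesis members, 3 (Pcna, Rrm1 and Rrm2) were also lower in both inducible lines, Rrm1 by only -0.02 in line 2. Tyms was not, with 0.01 in line 1. Of the 9 licensing and MCM members, 2 were lower in both.

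The medians of the condensin, spindle and cytokinesis list were -0.30 (line 1), -0.05 (line 2) and -0.52 (KH2). In KH2 all 17 tested genes were lower with doxycycline, from -1.12 (Kif18a) to -0.10 (Tpx2), where 47.9% of all tested genes were lower. Kif15, a spindle kinesin, had -0.30, -0.49 and -1.05, and Nusap1, a microtubule-bundling protein, -0.52, -0.28 and -0.79. In line 1 14 of the 17 were lower, and in line 2 11 of them, against 51.3% and 50.6% of all tested genes. Kinetochore and checkpoint genes had medians of -0.07, -0.16 and -0.02. Cenpq was at -0.44 ± 0.23, mostly from line 2 (-0.11, -0.77 and -0.58 in line 1, line 2 and KH2). Mis12, detected on 4 of 6 arrays, was at 0.38 ± 0.24, mostly from line 1 (0.73, 0.04 and -0.22). Its untreated reading in line 1, 5.29, was below the detection limit of that array (5.62). The anaphase-promoting complex list had medians of 0.03, -0.05 and -0.03. In that list Pttg1 (securin) had -0.60 ± 0.25, mostly from line 1 (-1.03, -0.17 and -0.12 in line 1, line 2 and KH2). Anapc2, a catalytic-core subunit, had 0.39 ± 0.19 (0.44, 0.35 and 0.07).

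The other lists, of regulators and of origin genes, differed in the sign of their medians. Mitotic transcription and CDK phosphorylation control had only 3 tested genes each. In line 1, line 2 and KH2 the medians were -0.25, 0.07 and 0.43 for the CDK inhibitors, -0.03, 0.00 and -0.34 for the RB and E2F list, and 0.17, 0.25 and 0.01 for mitotic transcription. They were -0.36, -0.15 and -0.33 for CDK phosphorylation control, -0.09, -0.25 and -0.31 for origin recognition and GINS, and -0.12, 0.21 and -0.13 for p53-linked arrest. Foxm1, a factor that turns on mitotic genes, was higher in each line (0.37, 0.40 and 0.30), and Mybl2, its partner in that task, had 0.10, 0.25 and 0.01. Among the CDK inhibitors Cdkn1c (p57) read 12.47 without and 11.22 with doxycycline for line 1, 12.11 and 11.61 for line 2, and 12.43 and 12.14 for KH2. Both induced arrays were below all other arrays, and the difference was -0.87 ± 0.24 (limma adjusted p = 0.955). Cdkn1a (p21) had -0.76, 0.07 and 0.43. Among p53-linked genes, Plk3 had 1.14, 0.27 and 0.20 and Plk2 had 0.08, 0.92 and 0.31, the larger value being in line 1 for Plk3 and in line 2 for Plk2. Cdc25a, which activates Cdk2, had -0.57, -0.15 and -0.33, and Skp2, which marks CDK inhibitors for breakdown, had -0.36, 0.06 and -0.39. E2f7, an E2F repressor detected on 2 of 6 arrays, had 0.39, 0.38 and 0.36. Its readings were above the detection limit on the induced arrays of the inducible lines only. The KH2 value is thus a difference of readings below that limit, and the untreated side of each inducible line was below it too. Tfdp2, an E2F partner, had 0.39, 0.33 and -0.75. In the origin recognition list, Orc4, detected on 4 of 6 arrays, had -0.63, -0.14 and -0.18, and Gins4, a helicase cofactor, had -0.17, -0.27 and -0.17.

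Several members were read by more than 1 probe, which gives a check within the arrays. Of 11 members with several tested probes, all probes shared their direction for 5 in line 1, 6 in line 2 and 8 in KH2. Ccnd1 and Birc5 held their direction over all probes in each line (3 probes each). The widest spread was that of Ccnd3, 1.07 in line 1. By the brightest probe, bead standard errors of a change ran from 0.07 to 0.15 for the members other than Ccne2, where they reached 0.28.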

How the data were processed

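RNA was extracted with Trizol, amplified with biotin label, and read on Illumina MouseRef-8 arrays on 1 chip, per the labels' protocols. Per the file headers, the non-normalised deposited table gives for each probe an intensity (mean bead signal), its bead standard error, a count of beads and a detection p-value. A second deposited table holds intensity values background-subtracted and normalised by the authors in BeadStudio, per the submitters' processing notes, by a method not given in the sources used here. The members and gene lists were chosen with earlier results of these data known.

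Raw intensity was background-corrected (normexp, offset 16), quantile-normalised and put on the log2 scale with neqc in limma 3.58.1 (R 4.3.3). The filter kept 12373 of 25697 probes, those whose detection p-value was under 0.05 on 2 arrays or more. They stand for 8605 genes, each represented by the brightest probe kept. Symbols came from the platform annotation (23978 probes with 1 symbol, 1719 with none), updated by Entrez number. No probe position was used here.

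Comparisons were two-sided limma contrasts (lmFit, then eBayes) over 4 group means, with p-values adjusted by Benjamini-Hochberg across the probes kept and a threshold of 0.05. Only the inducible lines give residual degrees of freedom, 2 in all. A lone KH2 array is thereby taken to scatter as they do, and p-values measure the spread between these cultures only. Replicates are lines, and the same line with and without doxycycline forms a pair per the labels (the difference between the lines correlated with r = 0.509 with and without the drug). The fits were tested on simulated data. The alternatives were other background correction, scaling, filters, probe choice, the authors' values, moderation, the line as a block, and leaving out arrays.

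Signal is given on every array for members that fall under any of these rules: the 2 members of each role with the largest mean change in the inducible lines; a change of at least 0.5 the same way in both inducible lines; an adjusted p under 0.05; tested probes that disagree in direction by at least 0.5 over the inducible lines; a change of at least 0.5 in KH2; or untreated levels at least 1 apart from KH2. Of each further list the 2 genes with the largest mean change are named. Bub1b and the genes named beyond these were chosen after their values were seen.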

Additional observations from a re-analysis of the deposited data

Results flagged for a closer look

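Bub1b and Cdc20 had changes of opposite sign in the inducible lines, each change by more than 2 bead standard errors. For Bub1b the change in line 1 minus that in line 2 was -0.78 on the log2 scale, with -0.54 in line 1, 0.24 in line 2 and 0.03 in KH2. For Cdc20 it was -0.39, with -0.18, 0.21 and 0.03 by the brightest probe, and its other probes gave -0.36, -0.19 and -0.26 in line 1 and 0.01, 0.21 and -0.02 in line 2. The difference between the lines was not tested, since each line has 1 array with doxycycline and 1 without.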

How the results depend on the processing

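Over the alternatives, the first 4 comparisons called 0 members under each setting tried, with smallest adjusted p-values of 0.127 or more. With the line as a replicate block the first comparison called 1 probe, that of no member, and the difference of the responses called 0 (smallest adjusted p = 0.482). No paired analysis was possible for the contrasts with KH2 because they share fewer than 2 lines. The number of members lower in both inducible lines was 15 to 18. The mitotic median was -0.25 in line 1 without background correction and -0.21 with no filter on dim probes; the difference of the phases in line 1 was then 0.13, against 0.24. The mitotic median was -0.15 in line 2 and 0.01 in KH2 under median scaling, and -0.09 in KH2 with the mean of a gene's probes. The G1-S median of line 1 turned from -0.06 to 0.02 under median scaling and to 0.01 in the authors' values. When 1 array was left out, the mitotic median over both lines was -0.26 to -0.08, and the G1-S median minus the mitotic median was -0.04 (without the induced array of line 1) to 0.21. The G1-S median over both lines was -0.21 to 0.10, and Ccne2 was -1.67 to -0.39, with -0.52 on all arrays without background correction. Leaving out 1 array also turned the sign of 7 named members in the first comparison, with ranges of -0.31 to 0.01 for Cdc6, -0.27 to 0.05 for Mcm4, -0.46 to 0.17 for Mcm6, -0.70 to 0.13 for Rrm1, -0.79 to 0.13 for Top2a, -0.47 to 0.13 for Kif11 and 0.00 to 0.32 for Ccnd2. Each upper end came without the untreated array of line 1, and the 0.00 of Ccnd2 without that of line 2. These fits break the pair of a line, so a turned sign is not a reversed change within a line. The other 8 members given on every array by the rule kept the direction of their main value under each alternative; members outside the rule were not recomputed one by one. The fit over the 3 lines called 6 probes when probes had to be detected on all 6 arrays. When a line was left out it called 1 to 268 probes, with 0 to 1 members (Ccne2, detected on 2 of the 6 arrays). The cause was not tested. The 17 condensin, spindle and cytokinesis genes were all lower in KH2 under each scaling and filter tried after the values were seen. Signal over background is the limit on dim genes, since an array detected no more than 43.7% to 46.5% of its probes.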
